A study of Mus musculus with 8 samples.

Results

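The genes described here carry the names of proteins of the cytosolic and the mitochondrial ribosome. They were chosen by symbol alone: names that begin with Rpl, Rps or Rplp and a digit make up the cytosolic set, and names that begin with Mrpl or Mrps and a digit make up the mitochondrial set. The rule also drops pseudogene symbols containing -ps and Rps6k kinase genes, and what it removed was 10 Rps6k genes. Rpl32l and Rpl37rt, annotated as processed pseudogenes, do not carry such symbols and stayed in the cytosolic set. This gave 162 genes, 85 cytosolic and 77 mitochondrial, of 13073 genes listed in any library. By name the cytosolic set holds 51 large-subunit and 32 small-subunit genes and 2 others, Rpl7l1 and Rps19bp1. The mitochondrial set holds 48 large-subunit and 28 small-subunit genes and 1 other, Mrps36.

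RNA sequencing libraries came from sorted mouse thymocytes, with 2 libraries in each of 4 groups. All mice carried loxP-flanked Bcl6, a transcriptional repressor: Bcl6fl/fl mice gave the libraries labelled WT, and Bcl6fl/fl Cd4cre mice gave those labelled KO. Cd4-cre is driven by regulatory sequence of the Cd4 gene and recombines from the double-positive (DP) thymocyte stage onward, so deletion is not limited to the sorted cells. In the in vitro system, sorted CD4+CD8+ DP thymocytes were stimulated in culture for 24 h with antibodies to CD3 and to CD28, each at 8 µg/ml, and double-negative (DN) cells were sorted from the culture. The in vivo libraries came from freshly sorted CD4-CD8-CD5+TCRb+ thymocytes, which the labels call agonist-p. The labels give no ages, sexes or number of animals, and do not say that the 2 libraries of a group came from separate animals or cultures. P-values therefore measure only the spread between these libraries, which may be technical.

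A ribosome translates messenger RNA into protein, and its small subunit reads the message while its large subunit joins the amino acids. Cytosolic ribosomal proteins are made in the cytosol, imported into the nucleolus and assembled there with ribosomal RNA. Mitochondrial ribosomal proteins are also encoded in the nucleus, and serve a separate ribosome that translates the few messages of the mitochondrial genome, all for the respiratory chain. Activated T cells raise the output of both systems as they grow, and many cytosolic ribosomal messages begin with a 5′ terminal oligopyrimidine (TOP) tract, through which mTOR and LARP1 control their translation.

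Total counts ranged from 14754440 to 23975636 per library. Bcl6 itself does not check the labels. In vitro its level in FPKM, fragments per kilobase scaled to library size, was 24.9 and 22.0 in the WT and 64.6 and 61.0 in the KO libraries, higher in both of the latter. In vivo it was 11.5 and 13.9 FPKM under WT and 8.81 and 14.4 under KO. The files count the whole gene, including parts that deletion may leave, so WT and KO are used here as labels only, and each direction given below depends on those labels. The in vitro libraries were made by Novogene and the in vivo libraries by BGI Genomics, so system and provider cannot be told apart.

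The bases around the transcription start show a sequence difference between the sets that their names did not use. RefSeq promoter entries (GRCm38.p6) matched 65 cytosolic and 68 mitochondrial members. A TOP start, here a C at the listed start followed by at least 4 further pyrimidines, was found in 14 of 65 cytosolic members (21.5%), in 0 of 68 mitochondrial members and in 2.49% of all 27025 RefSeq genes. The 14 include the annotated pseudogene Rpl32l. The windows below run from 15 bases before the listed start to 15 bases from it, 5′ to 3′ on the gene's strand, with the unbroken pyrimidine run that begins with C at the start in capitals. The first 6 are cytosolic members with a TOP start, shown because they display the tract, and the last 4 are mitochondrial members whose level fell in vitro (below).
Rps6: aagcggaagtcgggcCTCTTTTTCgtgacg
Rpl15: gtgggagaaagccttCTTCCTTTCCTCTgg
Rpl38: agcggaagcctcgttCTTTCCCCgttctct
Rps27: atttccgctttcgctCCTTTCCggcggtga
Rpl14: gggcgggccctctctCTTCTCgctgagcgc
Rpl35: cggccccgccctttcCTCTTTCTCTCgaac
Mrps18b: cattgcggggcgtgtCCTTggcccacccta
Mrpl50: tggctgagtcgggcaCgtctggcgctcttg
Mrpl47: gacaccgacactgtgggtctccattagaaa
Mrpl20: tgactttcggaagagCTgtcagtgctctta
In GRCm38.p6 these windows lie at chr4:86857353-86857382 (Rps6), chr14:18270972-18271001 (Rpl15), chr3:90213634-90213663 (Rps27), chr2:39005117-39005146 (Rpl35), chr17:35916426-35916455 (Mrps18b), chr4:49521069-49521098 (Mrpl50) and chr3:32736741-32736770 (Mrpl47), all on the minus strand. Those on the plus strand lie at chr11:114668565-114668594 (Rpl38), chr9:120571502-120571531 (Rpl14) and chr4:155802863-155802892 (Mrpl20). The pyrimidine run of Rpl15 was 13 bases long and that of Rpl35 was 11, against 4 at the start of Mrps18b and 1 at that of Mrpl50. With the tract allowed to begin within 5 bases of the listed start, the shares were 46.2% of cytosolic members, 22.1% of mitochondrial members and 18.5% of all genes. Annotated starts are often a few bases from the start in use, and no read position is used here.

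Sites of common promoter factors were searched on both strands from 250 bases before the start to 50 after it. The core of the ETS factor site, CCGGAAG, was in 36.9% of cytosolic and 35.3% of mitochondrial promoters, against 9.12% of all genes and 21.5% of the genes tested in vitro that matched. The YY1 site, AAGATGGC, was in 7.69%, 17.6%, 2.88% and 5.46%. The NRF1 site was in 1.54% of cytosolic and 4.41% of mitochondrial promoters, against 0.977% of all genes and 2.46% of those tested. The TATA sequence TATAAA was in 10.8% of cytosolic and 5.88% of mitochondrial promoters, against 14.2% of all genes and 6.08% of those tested. Promoter stretches of 100 bases upstream of the start display these sites for 3 members that the results return to, with the motif in capitals.
Rps25: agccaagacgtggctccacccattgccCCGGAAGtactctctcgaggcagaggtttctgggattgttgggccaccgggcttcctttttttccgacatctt
Mrpl36: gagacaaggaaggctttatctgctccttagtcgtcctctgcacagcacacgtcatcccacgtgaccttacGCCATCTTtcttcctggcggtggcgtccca
Rps27: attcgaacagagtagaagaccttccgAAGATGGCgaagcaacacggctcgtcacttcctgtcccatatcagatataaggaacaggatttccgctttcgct
The stretch of Rps25, chr9:44407614-44407713 on the plus strand, holds the ETS core. That of Mrpl36, chr13:73330909-73331008 on the plus strand, holds the YY1 site in reverse orientation, and that of Rps27, chr3:90213649-90213748 on the minus strand, holds it in forward orientation. A match is a description of the letters and not evidence that a factor binds.

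Cytosolic members were expressed far above mitochondrial members. In vitro the median of the mean FPKM over 4 libraries was 356 for the cytosolic and 15.0 for the mitochondrial set, and in vivo it was 93.4 and 9.03. The stalk protein gene Rplp1, whose product helps recruit elongation factors, was the highest cytosolic member in both systems, with means of 2560 FPKM in vitro and 1070 in vivo. Mrpl34, a large-subunit protein gene, was the highest mitochondrial member in both, at 91.5 and 45.6 FPKM. Other high cytosolic members were Rplp0 and Rps3a1 in vitro and Rps15 and Rpl4 in vivo. The lowest cytosolic member was Rpl39l, the mainly testicular paralog of Rpl39, with 0.891 FPKM in vitro and 0.506 in vivo. It was the only member that failed the filter of at least 1 FPKM in at least 2 libraries, in both systems, which left 84 cytosolic and 77 mitochondrial members tested.

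**Figure D1:**
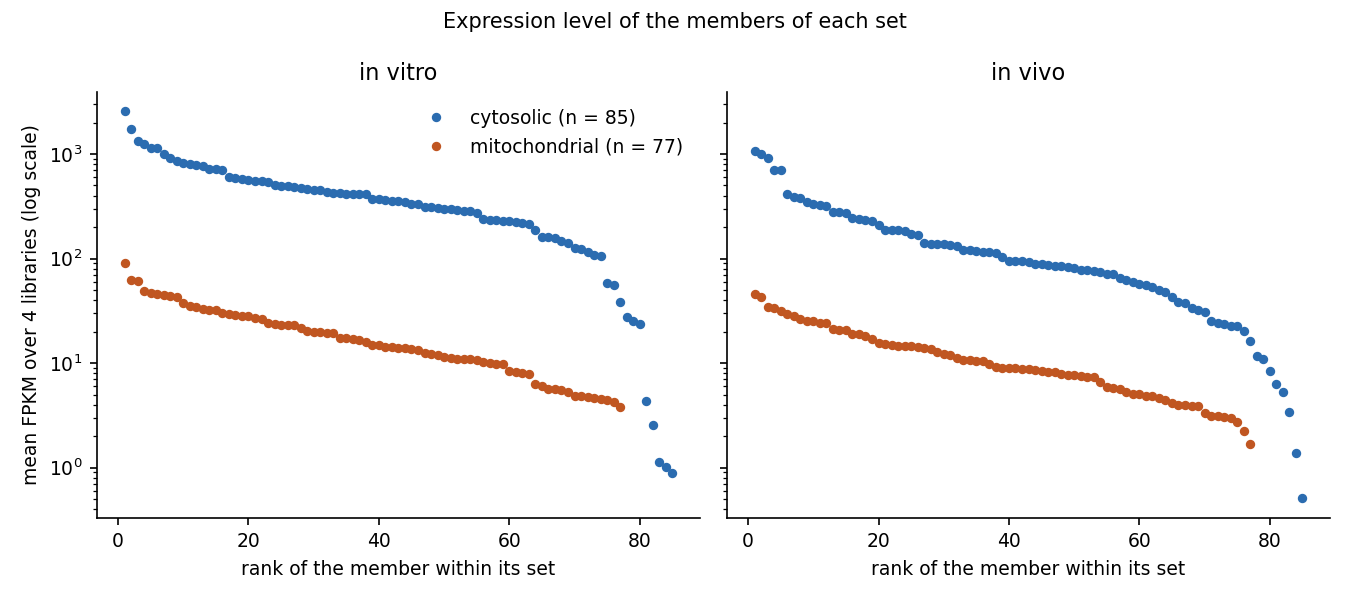
Mean FPKM over the 4 libraries of each system (log scale) against the rank of the member within its set, for the 85 cytosolic and 77 mitochondrial genes. The cytosolic medians of 356 in vitro and 93.4 in vivo lie above the mitochondrial medians of 15.0 and 9.03, and a short tail of cytosolic members falls to the mitochondrial range.

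The low tail of the cytosolic set includes core proteins of the ribosome. Rpl24, which joins the large subunit late and forms a bridge to the small one, had 2.75 and 4.22 FPKM under the WT label in vitro. Rps10, a small-subunit protein, had 4.45 and 5.16 FPKM there, and Rpl13a, also known for translational silencing of inflammatory messages, had 25.2 and 24.8. Many ribosomal protein genes have processed pseudogenes that share long stretches of their sequence. Of the 50-base stretches of the transcript, 81.7% in Rpl24, 92.4% in Rps10 and 57.4% in Rpl13a also occur in another annotated gene of GRCm38. Other members go the other way: Rps27, expressed far above this tail, shares 98.6%, and Rpl39l, the lowest member, shares 0.0%. Whether level goes with the shared part was not tested. The median share was 55.5% over the cytosolic and 0.0% over the mitochondrial members, and how the authors' counting treated such reads is not given in the sources used here. Levels of cytosolic members with large shares, and their fold changes, are therefore uncertain.

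In vitro, ribosomal protein genes of both kinds were lower under the KO label, and none was called higher. In bulk samples such as these, fewer cells of a type and less RNA per cell cannot be told apart. By edgeR's quasi-likelihood test with Benjamini-Hochberg adjustment over all tested genes, 21 of 84 cytosolic members fell (25.0%) and 41 of 77 mitochondrial members fell (53.2%), against 17.7% of all 9658 genes tested. In the other direction 20.1% of all genes rose, against 0 members of either set by edgeR, DESeq2 or limma, and 0 members rose at an unadjusted p under 0.05 in edgeR. The median log2 fold change was -0.21 over the cytosolic set and -0.30 over the mitochondrial set, against -0.003 over all tested genes. It was below 0 in 78 of 84 and in 67 of 77 members. Both libraries labelled KO lay below both labelled WT in 41 cytosolic and 59 mitochondrial members (35.5% of all genes), and above both in 0 and 4 (35.0% of all genes).

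**Figure D2:**
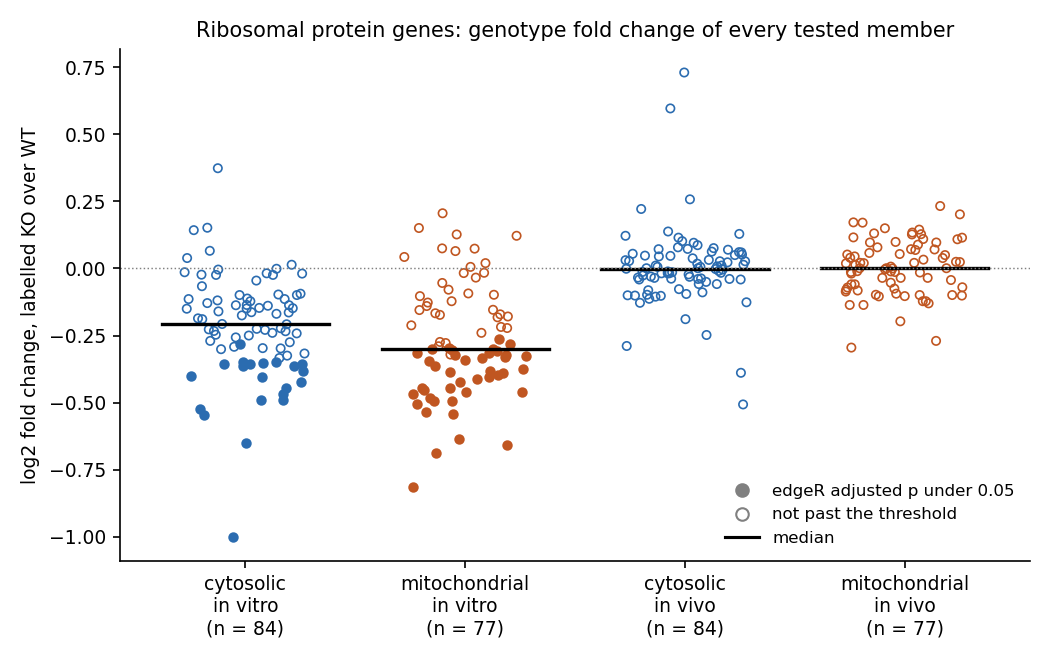
Log2 fold change of the libraries labelled KO over those labelled WT for every tested member (points, spread sideways at random), with filled points for an edgeR adjusted p under 0.05 and a black bar for the set's median. In vitro the medians are -0.21 (cytosolic) and -0.30 (mitochondrial) and the filled points all lie below 0, while in vivo the medians are near 0 and no point is filled.

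The count of cytosolic members that fell rested on which libraries entered the fit. It was 8 without WT replicate 1, 38 without WT replicate 2 and 9 without KO replicate 1, while the mitochondrial count was 19 without WT replicate 1 and 27 without KO replicate 1. Without WT replicate 1 the shares that fell were 9.52% of cytosolic and 24.7% of mitochondrial members, against 11.1% of all genes, and without KO replicate 1 they were 10.7% and 35.1%, against 13.6%. The cytosolic share was thus below that of all genes without either library, and above it (45.2% against 15.4%) without WT replicate 2. The cytosolic median was -0.09 without WT replicate 1, -0.12 without KO replicate 1 and -0.31 without WT replicate 2. In the 4 in vitro libraries the median deviation of the cytosolic members from their mean over libraries was 0.22 and 0.00 under WT and -0.18 and -0.03 under KO on the log2 scale. WT replicate 1 thus stood high and KO replicate 1 low, and the other two libraries lay close together. For the mitochondrial members the deviations were 0.17 and 0.11 under WT and -0.15 and -0.12 under KO, so that replicates lay close together and the groups were apart.

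The summed levels show the same arrangement. Cytosolic members summed to 43298 and 36360 FPKM under WT and to 32138 and 36629 under KO in vitro, so that WT replicate 2 lay below KO replicate 2 and the groups overlapped. They took 7.01% and 6.15% of all counts under WT and 5.47% and 6.12% under KO. Mitochondrial members summed to 1749 and 1686 FPKM under WT and to 1403 and 1454 under KO, with no overlap, and took 0.370% and 0.367% of counts against 0.307% and 0.310%. The log2 ratio of the summed means was -0.21 for the cytosolic set, with a replicate SD of 0.16, and -0.27 for the mitochondrial set, with a replicate SD of 0.04.

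**Figure D3:**
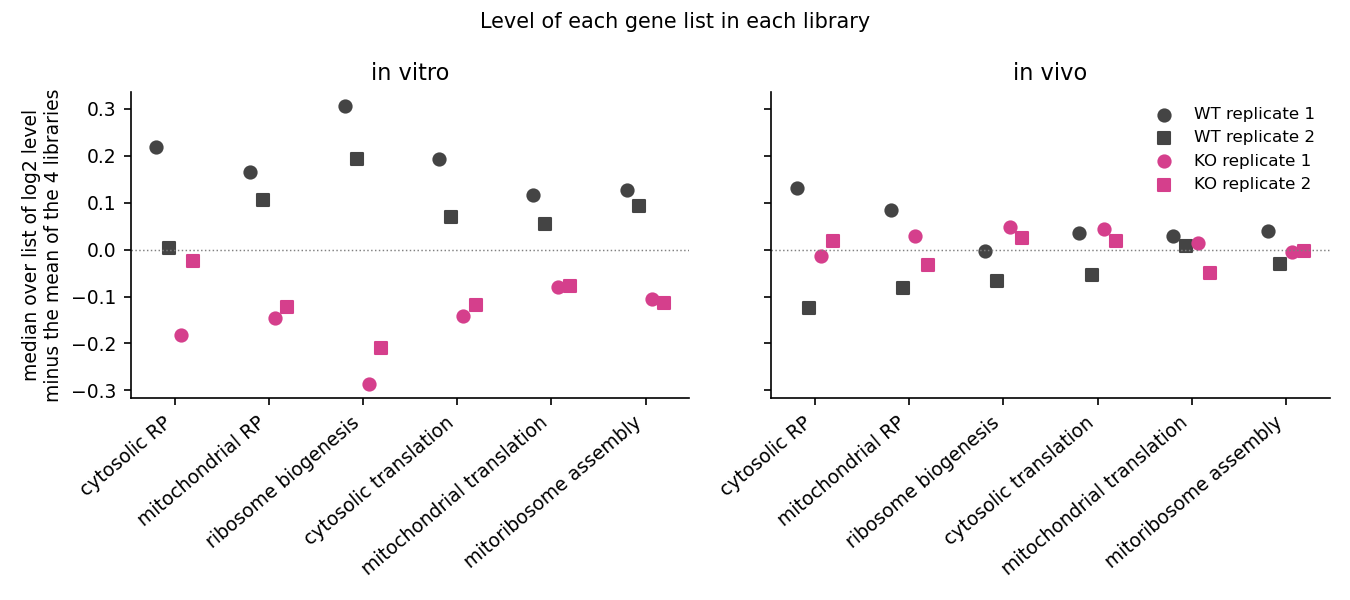
Median over each gene list of the log2 level of its tested genes minus their mean over the 4 libraries of the system, for each library (circles, replicate 1; squares, replicate 2; grey, labelled WT; pink, labelled KO). In vitro the mitochondrial members separate at 0.17 and 0.11 against -0.15 and -0.12, the cytosolic members at 0.22 and 0.00 against -0.18 and -0.03, and in vivo both sets mix.

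Among cytosolic members the largest falls past the threshold with no overlap of groups were those of Rpl24, Rpl7l1, Rpl34, Rpl23a and Rps12. Rpl24 had 2.75 and 4.22 FPKM under WT and 1.59 and 1.74 under KO (log2 fold change -1.0 ± 0.28 SE, edgeR adjusted p = 0.0165). Its 2 WT values differ more from each other than its KO values do, and the gene had a mean of 51.8 counts per library. Rpl7l1 had 49.3 and 45.3 FPKM under WT and 28.5 and 30.7 under KO (-0.65 ± 0.08, edgeR adjusted p = 0.000176). Its product is a paralog of Rpl7 found with ribosome precursors, and the groups were well apart with close replicates.

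Rpl34, a core large-subunit protein, had 304 and 250 FPKM under WT and 175 and 197 under KO (-0.55 ± 0.11, edgeR adjusted p = 0.00333). Rpl23a, which sits at the mouth of the peptide exit tunnel, had 666 and 507 against 402 and 400 (-0.52 ± 0.12, edgeR adjusted p = 0.00522), with 82.6% of its 50-base stretches shared with other genes. Rps12, a small-subunit protein, had 413 and 317 against 237 and 273 (-0.49 ± 0.13, edgeR adjusted p = 0.0111). In these 3 genes WT replicate 1 was the highest library, and the lowest WT value stayed above the highest KO value.

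Rpl14 and Rps25 moved in the same way. Rpl14, a large-subunit protein whose TOP start is shown above, had 414 and 415 FPKM under WT and 296 and 301 under KO (-0.45 ± 0.09, edgeR adjusted p = 0.00293). Rps25, a small-subunit protein needed for initiation at some internal ribosome entry sites, had 289 and 238 against 184 and 190 (-0.47 ± 0.11, edgeR adjusted p = 0.00603). Rpl14, Rpl34, Rpl36a, Rpl7l1 and Rps25 were the 5 of 21 that fell under all 16 alternative settings. In GRCm38 Rpl34 lies at chr3:130726831-130730398 on the minus strand and Rpl14 at chr9:120571444-120574654 on the plus strand, and the 5 are spread over chromosomes 3, 9, 17 and X.

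Members of known special role divided between those that fell and those that missed the threshold. Of the stalk genes, Rplp0 had 2110 and 1490 FPKM under WT and 1470 and 1900 under KO, and its groups overlapped (-0.07 ± 0.18). Rplp1 (-0.11 ± 0.13) and Rplp2 (-0.14 ± 0.14) also missed the threshold. Rpl5 (-0.16 ± 0.12) and Rpl11 (-0.02 ± 0.11), which bind the smallest large-subunit RNA and restrain Mdm2, missed it too. Rpl4, part of the exit tunnel, fell, from 1140 and 966 to 769 and 799 FPKM (-0.40 ± 0.13, edgeR adjusted p = 0.0261). Rpl3 (-0.32 ± 0.12, adjusted p = 0.0636), at the peptidyl transferase centre, and Rpl10 (-0.14 ± 0.12) did not pass. Rpl38, known for its part in the translation of Hox messages, had 654 and 562 FPKM under WT and 476 and 528 under KO, with no overlap, but missed the threshold (-0.25 ± 0.10, adjusted p = 0.0647).

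Small-subunit members differed among themselves. Rps24 fell from 178 and 146 to 123 and 118 FPKM (-0.40 ± 0.12, edgeR adjusted p = 0.0175), and Rps26 from 745 and 628 to 522 and 530 (-0.36 ± 0.11, edgeR adjusted p = 0.0263). Both are mutated in Diamond-Blackfan anemia, as is Rps19, which had 125 and 125 FPKM under WT and 113 and 130 under KO (-0.01 ± 0.10, adjusted p = 0.925). Rps14, the gene lost in the 5q- syndrome, had 371 and 342 against 359 and 414 (0.14 ± 0.11, adjusted p = 0.33), and its groups overlapped. Rps6, the substrate of S6 kinase, had 928 and 741 against 671 and 727 and missed the threshold (-0.23 ± 0.13, adjusted p = 0.177). Rps27a, made as a fusion with ubiquitin, fell (-0.35 ± 0.10, edgeR adjusted p = 0.02).

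Paralogs are set side by side here. Rpl22, which is needed for the development of αβ T cells, had 142 and 132 FPKM under WT and 116 and 115 under KO (-0.22 ± 0.09, adjusted p = 0.0613). Its paralog Rpl22l1 had 24.5 and 32.1 against 22.8 and 22.1 (-0.30 ± 0.12, adjusted p = 0.0728). Neither passed the threshold, although both KO values lay below both WT values in each. Rps27 had 518 and 390 FPKM against 378 and 403 and its groups overlapped (-0.19 ± 0.12, adjusted p = 0.246). Rps27l, a paralog induced by p53, had 123 and 115 against 96.3 and 85.5 and fell (-0.36 ± 0.09, edgeR adjusted p = 0.00927). The difference within a pair was not tested. Rps19bp1, which binds Rps19 and is no structural part of the ribosome, fell from 32.5 and 30.3 to 22.8 and 25.5 FPKM (-0.35 ± 0.10, edgeR adjusted p = 0.0195).

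Among mitochondrial members the largest falls were those of Mrps18b, Mrpl19, Mrpl47, Mrpl50 and Mrps30. Mrps18b, a homologue of a bacterial small-subunit protein, had 18.7 and 15.3 FPKM under WT and 9.09 and 9.92 under KO (-0.82 ± 0.12, edgeR adjusted p = 0.000385). Mrpl19, a large-subunit protein, had 9.68 and 10.1 against 5.84 and 6.23 (-0.69 ± 0.09, edgeR adjusted p = 0.00021). Mrpl47, also of the large subunit, had 5.69 and 5.41 against 3.51 and 3.42 (-0.66 ± 0.11, edgeR adjusted p = 0.000949). In each of the 3 the replicates lay close beside the distance between groups.

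Mrpl50, a protein found in mitochondrial but not bacterial ribosomes, had 20.9 and 21.0 FPKM under WT and 14.2 and 12.3 under KO (-0.64 ± 0.10, edgeR adjusted p = 0.000623). Mrps30, which structures place in the large subunit despite its name, had 5.85 and 5.74 against 3.95 and 3.86 (-0.54 ± 0.09, edgeR adjusted p = 0.00109). Unlike many cytosolic members, these 2 genes share 0.0% of their 50-base stretches with other genes, and Mrps18b shares 30.9%. Mrps18b lies at chr17:35910379-35916389 and Mrpl50 at chr4:49512596-49521093, both on the minus strand of GRCm38. Of the 41 members that fell, 15 fell under all 16 alternative settings, and these include all 5 with the largest falls.

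**Figure D4:**
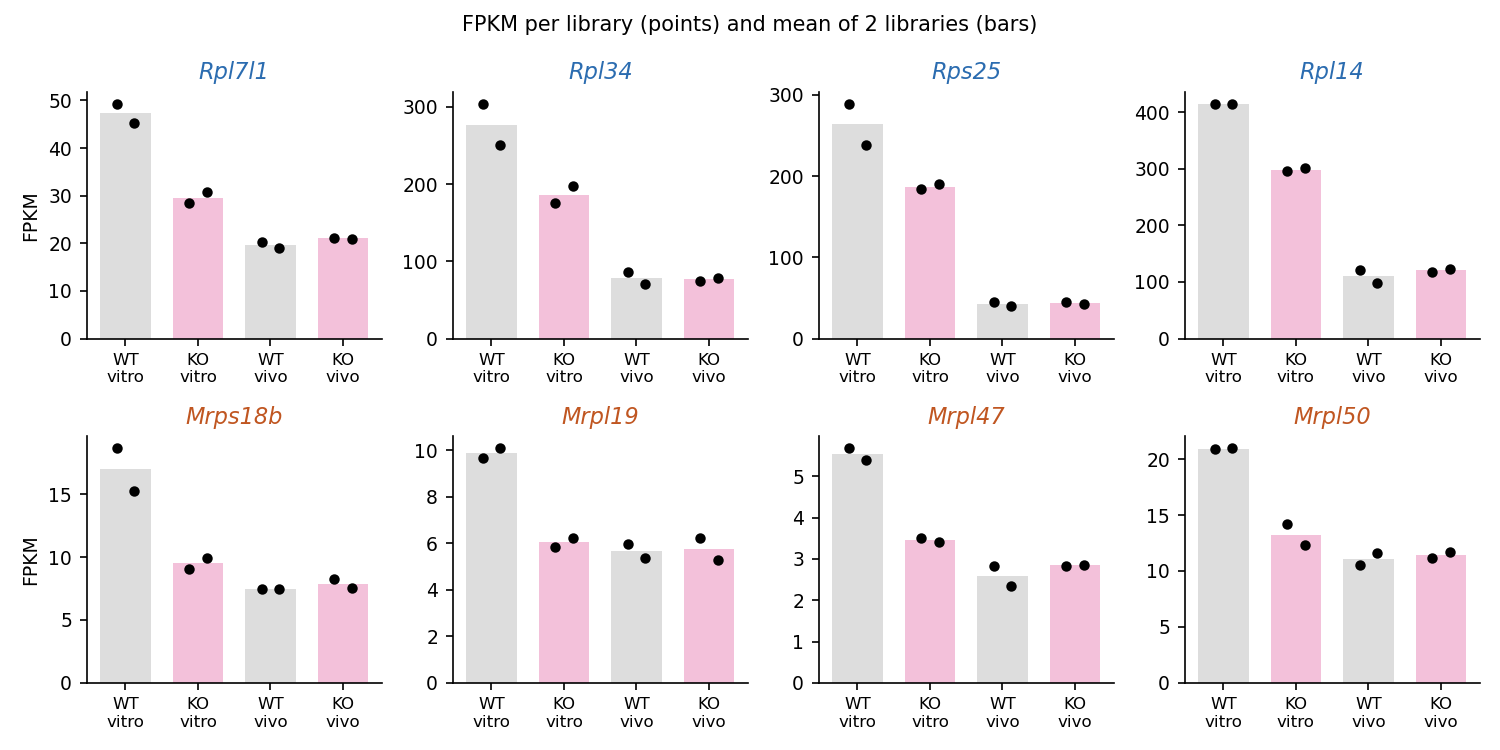
FPKM in each library (points) and the mean of the 2 libraries of a group (bars, from 0), for 4 cytosolic genes (blue titles) and 4 mitochondrial genes (orange titles). In vitro both KO points lie below both WT points in all 8 genes, as for Mrpl19 at 5.84 and 6.23 against 9.68 and 10.1, and in vivo the groups lie close together.

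Other mitochondrial members are given by their roles. Mrpl12, the stalk protein, fell from 75.4 and 66.8 to 46.9 and 54.9 FPKM (-0.46 ± 0.10, edgeR adjusted p = 0.00446). Mrpl10, which anchors the stalk, had 30.7 and 31.0 against 26.0 and 26.3, with no overlap, and missed the threshold (-0.21 ± 0.09, adjusted p = 0.0735). Mrpl11, at the base of the stalk, fell (-0.33 ± 0.09, edgeR adjusted p = 0.0153), as did Mrpl15 (-0.40 ± 0.09, edgeR adjusted p = 0.00433) and Mrpl28 (-0.28 ± 0.10, edgeR adjusted p = 0.0408). Mrpl58, a release factor built into the ribosome that frees stalled peptides, had 14.3 and 13.6 FPKM against 14.0 and 14.8 and its groups overlapped (0.08 ± 0.09). Mrpl57 missed the threshold as well (-0.05 ± 0.10).

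Of the members named for the small subunit, Mrps2 fell from 19.3 and 15.8 to 12.5 and 12.3 FPKM (-0.48 ± 0.11, edgeR adjusted p = 0.00455). Mrps27, which carries RNA-binding repeats, fell from 17.6 and 14.9 to 11.2 and 12.2 (-0.45 ± 0.11, edgeR adjusted p = 0.00871). Mrps5 (-0.30 ± 0.10, edgeR adjusted p = 0.0338) and Mrps6 (-0.30 ± 0.11, edgeR adjusted p = 0.0485) passed narrowly. Mrps12, near the decoding site, had 35.3 and 30.7 against 24.5 and 31.1 and its groups overlapped (-0.22 ± 0.13, adjusted p = 0.194). Among the 3 Mrps18 paralogs Mrps18a fell (-0.34 ± 0.10, edgeR adjusted p = 0.0215) and Mrps18c, with 12.5 and 11.7 against 11.9 and 11.6 FPKM, did not pass (-0.02 ± 0.14, adjusted p = 0.935). Mrps36, now known as a subunit of the oxoglutarate dehydrogenase complex, had 21.5 and 27.8 against 22.2 and 21.5 and missed the threshold (-0.14 ± 0.13).

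Both subunits of each ribosome held members that fell. In vitro 13 of 50 cytosolic large-subunit and 6 of 32 small-subunit members fell (26.0% and 18.8%), against 17.7% of all tested genes. The cytosolic small-subunit share was thus near the background. Both others, Rpl7l1 and Rps19bp1, fell. Of the mitochondrial members, assigned by symbol, 26 of 48 large-subunit and 15 of 28 small-subunit genes fell (54.2% and 53.6%). The 15 include Mrps30, which structures place in the large subunit. Whether the subunits or the sets differ in their response was not tested. Members that share under 20% of their 50-base stretches with other genes give a count with less of that uncertainty, and this split was chosen after the data had been seen. Of these, 5 of 9 cytosolic members fell (median -0.28) and 37 of 67 mitochondrial members fell (median -0.30), against 17.7% of all tested genes. The 5 were Rpl4, Rpl39, Rps24, Rpl7l1 and Rps19bp1, so that they include both of the others, which are assigned to neither subunit. Of members at or above 20%, 16 of 73 cytosolic and 4 of 10 mitochondrial members fell (medians -0.21 and -0.24).

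Members with and without the promoter features both fell in part. Of cytosolic members with a TOP start 2 of 14 fell, Rpl14 and Rpl35, and of the others that matched 15 of 51 fell. Among all matched genes tested, 30 of 181 with a TOP start and 1359 of 7676 without it fell. With the looser window 9 of 30 and 8 of 35 fell, against 252 of 1604 and 1137 of 6253 among all matched genes tested. Of mitochondrial members with the YY1 site 7 of 12 fell, and of those without it 28 of 56. Mrpl36 was among the 7 (50.9 and 50.3 against 33.1 and 37.4 FPKM). For all matched genes tested the counts were 79 of 429 with the YY1 site and 1310 of 7428 without it. Of cytosolic members with the ETS core 7 of 24 fell, Rps25 among them, and of those without it 10 of 41. Of mitochondrial members with the ETS core 8 of 24 fell, and of those without it 27 of 44. Over all matched genes tested, 311 of 1689 with the core and 1078 of 6168 without it fell. These differences were not tested.

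In vivo, no ribosomal protein gene passed the threshold in either direction. By edgeR 0 of 84 cytosolic and 0 of 77 mitochondrial members rose or fell, where 0.284% of all 10227 tested genes rose and 0.821% fell. DESeq2 and limma also called 0 members. At an unadjusted p under 0.05 edgeR called 0 cytosolic members and 1 mitochondrial member, Mrps5, which had 9.23 and 9.09 FPKM under WT and 7.66 and 7.36 under KO (-0.30 ± 0.10, adjusted p = 0.244). The median log2 fold change was -0.001 for the cytosolic and 0.001 for the mitochondrial set, against -0.004 over all genes. Both KO libraries lay below both WT libraries in 2 cytosolic and 8 mitochondrial members (22.7% of all genes) and above both in 3 and 9 (20.8% of all genes).

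The in vivo libraries set limits on what could have been seen. The cytosolic median moved to 0.13 without WT replicate 1 and to -0.13 without WT replicate 2, since these 2 libraries lay at either end: cytosolic members summed to 15162 and 12500 FPKM under WT and to 13696 and 14184 under KO. Mitochondrial members summed to 1036 and 907 against 991 and 947. In both sets the 2 KO libraries lay between the 2 WT libraries. The biological coefficient of variation over all genes was 0.121 in vivo and 0.0727 in vitro. Rpl14, for example, had 121 and 98.4 FPKM under WT and 118 and 123 under KO, with a 95% interval of the log2 fold change from -0.17 to 0.43. Rpl23a shows how far 1 library can lie from the rest, with 4.02 and 20.6 FPKM under WT and 18.4 and 22.7 under KO (0.73 ± 0.63).

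Across members the fold changes of the 2 systems had a Pearson correlation of 0.03 over 84 cytosolic and -0.01 over 77 mitochondrial members. For the log2 mean FPKM of the systems it was 0.84 and 0.90, and members share libraries and depth in both correlations.

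The genotype effect itself was compared between systems in 1 model over all 8 libraries. The fold change was higher in vivo than in vitro in 4 of 84 cytosolic members and 9 of 77 mitochondrial members, against 6.57% of all 9364 genes tested in both systems. It was lower in vivo in 0 members, against 9.81% of all genes, and 0 members were lower in DESeq2 or limma or at an unadjusted p under 0.05 in edgeR. The 4 cytosolic members were Rpl7l1 (difference 0.76 ± 0.13 SE, edgeR adjusted p = 0.00399), Rpl14 (0.60 ± 0.16, edgeR adjusted p = 0.027), Rps25 (0.54 ± 0.16, edgeR adjusted p = 0.0459) and Rpl21 (0.98 ± 0.30, edgeR adjusted p = 0.0466). The cytosolic share is near the background. At an unadjusted p under 0.05 in edgeR, 18 of 84 cytosolic and 33 of 77 mitochondrial members were higher in vivo. Over all 9364 genes 3011 passed that level, counting both directions.

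Rpl7l1 was the member with the smallest adjusted p. In vivo it had 20.3 and 19.1 FPKM under WT and 21.2 and 21.0 under KO (0.09 ± 0.09), against its fall in vitro. Rpl21, a large-subunit protein, had 67.6 and 60.1 against 50.4 and 47.5 in vitro and 5.11 and 3.27 against 4.91 and 7.85 in vivo, where its groups overlapped. Rps10, the next by adjusted p, missed the threshold.

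The 9 mitochondrial members were led by Mrps18b (difference 0.91 ± 0.19, edgeR adjusted p = 0.0095), Mrpl50 (0.70 ± 0.16, edgeR adjusted p = 0.0125), Mrpl19 (0.72 ± 0.16, edgeR adjusted p = 0.0141), Mrpl47 (0.81 ± 0.19, edgeR adjusted p = 0.0166) and Mrpl20 (0.65 ± 0.17, edgeR adjusted p = 0.0275). In vivo Mrps18b had 7.47 and 7.44 FPKM under WT and 8.24 and 7.51 under KO, Mrpl50 had 10.5 and 11.6 against 11.2 and 11.7, and Mrpl19 had 5.98 and 5.38 against 6.21 and 5.26. The groups overlapped in Mrpl50 and Mrpl19 and were close in Mrps18b. The count of 9 was 0 without in vitro WT replicate 1 and 20 without in vivo WT replicate 1, and the cytosolic count of 4 was 1 and 12. It was 4 without in vitro WT replicate 2, 2 and 3 without in vitro KO replicate 1 or 2, 5 without in vivo WT replicate 2 and 3 without in vivo KO replicate 1 for the mitochondrial set. The cytosolic count was 1 without either in vitro KO library or in vivo KO replicate 2 and 2 without in vivo KO replicate 1.

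Genes that build or work with the ribosome were read from the same fits. In vitro 54 of 65 ribosome biogenesis genes fell (83.1%) and 1 rose, with a median of -0.51, a larger median fall than in either set of structural proteins. Mphosph10, a component of the small-subunit processome, had 30.5 and 29.8 FPKM under WT and 16.5 and 16.1 under KO (-0.86 ± 0.08, edgeR adjusted p = 2.18e-05). Gnl3, the nucleolar GTPase nucleostemin, had 41.9 and 38.1 against 21.7 and 22.1 (-0.84 ± 0.08, edgeR adjusted p = 2.57e-05). Dkc1, the pseudouridine synthase, fell by 0.75 and Utp14a by 0.70 on the log2 scale. The gene that rose was Nop53 (0.29 ± 0.09, edgeR adjusted p = 0.021), and Ubtf, the ribosomal DNA transcription factor, was at 0.01.

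**Figure D5:**
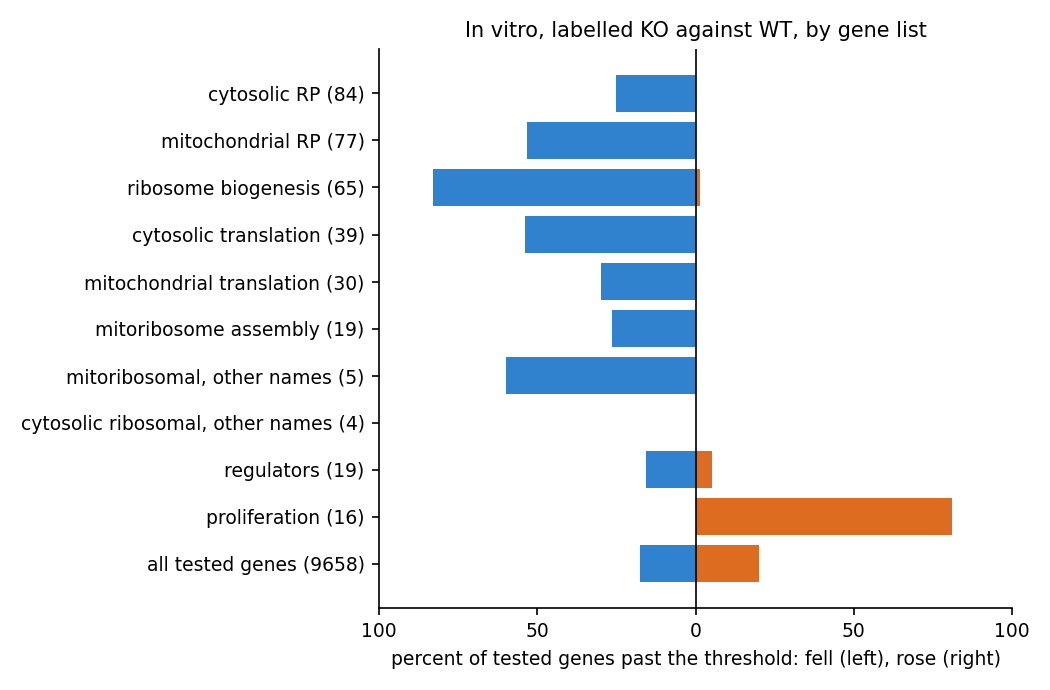
Percent of the tested genes of each list (number in brackets) that passed an edgeR adjusted p of 0.05 in vitro, fallen to the left and risen to the right. Ribosome biogenesis genes reach 83.1% fallen and mitochondrial ribosomal proteins 53.2%, against 17.7% of all tested genes, while proliferation genes lie on the other side.

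Translation factors were lower too. Of 39 cytosolic translation factors 21 fell (53.8%, against 17.7% of all tested genes) and 0 rose (median -0.27). Those that fell numbered 8 without WT replicate 1 and 9 without KO replicate 1. Eif2s1 and Eif2s2, subunits of the factor that brings the initiator tRNA, fell by 0.50 and 0.48 on the log2 scale, Eif5b, which joins the subunits, by 0.51 and the release factor Gspt1 by 0.41. Of 30 mitochondrial translation factors 9 fell and 0 rose (median -0.17), with 3 without WT replicate 1 and 4 without KO replicate 1. Those that fell with all 4 libraries include the elongation factors Tufm and Gfm1, by 0.47 and 0.44. They also include the aminoacyl-tRNA synthetases Yars2 and Nars2, by 0.52 and 0.64. Of 19 mitoribosome assembly genes 5 fell (26.3%, against 17.7% of all tested genes) and 0 rose (median -0.22). Lrpprc, Fastkd2, Noa1 and Ddx28 were among those that fell, and fewer fell without WT replicate 1. In these lists 0 genes rose by DESeq2 or limma as well.

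Ribosomal proteins whose names lie outside the rule were counted apart. Of 5 mitochondrial ones Ptcd3 (-0.48 ± 0.09, edgeR adjusted p = 0.00153), Gadd45gip1 (-0.40 ± 0.14, edgeR adjusted p = 0.0371) and Chchd1 (-0.40 ± 0.09, edgeR adjusted p = 0.00563) fell, while Dap3 (-0.13 ± 0.08) and Aurkaip1 (-0.10 ± 0.10) missed the threshold. The cytosolic Rpsa (-0.09 ± 0.17), Fau (0.15 ± 0.10) and Rack1 (-0.12 ± 0.15) missed the threshold. Of 19 regulators 3 fell (15.8%) and 1 rose (5.26%), against 17.7% and 20.1% of all tested genes, so the share that fell was near the background. Myc, which drives ribosomal genes in many cells, fell from 90.5 and 81.3 to 53.9 and 62.8 FPKM (-0.53 ± 0.10, edgeR adjusted p = 0.00136). Larp1, which binds TOP messages, fell by 0.28, the coactivator Ppargc1b fell by 0.55, and Eif4ebp2 rose (0.25 ± 0.09, edgeR adjusted p = 0.0394). In vivo 0 genes of these 7 lists were called by edgeR or limma and DESeq2 called 1, a regulator, and ribosome biogenesis genes had a median of 0.07 with 3 of 65 at an unadjusted p under 0.05.

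Proliferation genes and markers of other cells moved beside these results, and their part in them was not tested. In vitro 20.1% of all tested genes rose and 17.7% fell. There 13 of 16 tested proliferation genes rose (81.2%) and 0 fell (median 0.62). Mki67 was at 0.464 and 0.578 FPKM under WT and at 1.97 and 1.53 under KO. In vivo 0 of 20 proliferation genes passed the threshold by edgeR, where 0.284% of all tested genes rose and 0.821% fell, and 10 by DESeq2. Their median in vivo was 0.98, with Mki67 at 15.4 and 13.8 FPKM under WT against 47.2 and 26.2 under KO. All 11 T cell markers passed the filter in both systems. Of these 7 rose (63.6%) and 1, Cd3e, fell (9.09%) in vitro, and Thy1 went from 3.06 and 4.56 to 20.9 and 18.0 FPKM. Of 6 B cell markers 2 were tested in vitro, and both rose from summed levels of 2.95 and 2.85 to 5.06 and 5.76 FPKM. In vivo 5 B cell markers were tested and 0 passed by edgeR, with 4 at an unadjusted p under 0.05 (1445 of all 10227 genes). Both KO libraries lay above both WT libraries in 4 of the 5 (20.8% of all genes). Cd79a had 5.21 and 1.49 FPKM under WT and 9.66 and 6.0 under KO. Both KO libraries lay below both WT libraries in Blk (22.7% of all genes), with 65.5 and 39.9 against 34.2 and 15.8. RNA encoded by the mitochondrial genome took 2.06% and 1.83% of counts under WT and 1.69% and 1.49% under KO in vitro, and 2.08% and 2.24% against 1.89% and 1.94% in vivo, lower in both KO libraries of each system. Of 9 thymic stroma markers 2 were tested in vitro, Epcam and Pecam1, and both rose. There they sum to 15.5 and 17.4 FPKM under WT against 29.5 and 28.2 under KO. In vivo 3 were tested and 0 were called by edgeR. Their log2 fold changes in vivo were -0.73 for Epcam, -0.16 for Pecam1 and 1.2 for Pdgfrb. Tested erythroid markers in vitro summed to 1.73 and 12.8 FPKM under WT and 3.26 and 13.1 under KO, high in both replicate 2 libraries. Tested myeloid markers in vivo summed to 39.3 and 17.8 under WT and 144 and 26.1 under KO, high in KO replicate 1.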

How the data were processed

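TRIzol was used to extract total RNA, per the labels' protocols. The deposited table of each library gives every gene a whole-number count and a length-scaled value in FPKM, computed by the authors. Tools named in the submitters' processing notes, with no role or order, are Trim Galore (version 0.4.4), Bowtie2, Subread, featureCounts, RSEM and DESeq2, with mm10 as the build. The annotation, strand setting and treatment of reads that match several genes: not given in the sources used here. Group and replicate number come from the sample titles. The members and gene lists were chosen with earlier results of these data known.

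The main test was edgeR's quasi-likelihood test on the counts (version 4.0.16 in R 4.3.3, TMM scaling), run separately on the 4 libraries of either system with no block. A gene entered if 2 or more libraries had an FPKM of 1 or more, which left 9658 genes in vitro and 10227 in vivo. P-values are two-sided and adjusted by Benjamini-Hochberg over every gene tested, and calls were made below 0.05. The effects of the 2 systems were compared in a fit of all 8 libraries by group means. Standard errors were taken as the size of the log2 fold change divided by the root of F. The procedure was tested on simulated data. Lists were read out of the whole fit as counts and medians, with no set test. Named genes were the 5 largest falls per set past the threshold without overlap, members fixed by name for their known roles, the 5 smallest adjusted p for the difference, the 3 highest and lowest by level, and up to 4 genes per list. Ubtf, Cd3e, Mrpl36, Rpl36a, Rpl29 and the members chosen to show sequences were named after their values were seen. Subunits follow the symbols.

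Shared 50-base stretches were counted in the shortest principal transcript of each member against all other transcripts of GENCODE M21 (GRCm38). Promoters came from RefSeq (GRCm38.p6). No 2 replicates agreed within sampling noise, so all 8 libraries were kept apart: chi-square divided by degrees of freedom was 12 (WT) and 11.1 (KO) in vitro, 22.8 and 12.4 in vivo. Deviations of same-numbered libraries from their group means correlated at -0.305 in vitro and 0.459 in vivo, and nothing in the labels says that a number marks a shared animal. Alternatives were other scalings and filters, DESeq2 1.42.0, limma 3.58.1 on log2(FPKM + 1) or log2(FPKM + 0.1), all 8 libraries fitted at once, the replicate number as a block, and fits that dropped single libraries, in which the spread of the remaining lone library was borrowed from the other groups.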

Additional observations from a re-analysis of the deposited data

Results flagged for a closer look

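The test of the difference between systems called 13 members (edgeR, adjusted over 9364 genes). In each the log2 fold change of KO over WT labels was higher in vivo than in vitro. Of tested members 4.76% of the cytosolic and 11.7% of the mitochondrial set were called higher in vivo, against 6.57% of all genes. The cytosolic share was thus below that of all genes. Both counts depended on which libraries entered the fit, as given above, and both were lower without in vitro WT replicate 1. In the cytosolic set the difference was 0.763 for Rpl7l1, 0.60 for Rpl14, 0.541 for Rps25 and 0.978 for Rpl21. In the mitochondrial set it was 0.913 for Mrps18b, 0.704 for Mrpl50, 0.72 for Mrpl19, 0.809 for Mrpl47, 0.646 for Mrpl20, 0.471 for Mrps30, 0.52 for Mrps10, 0.622 for Mrps28 and 0.555 for Mrpl51. All 13 had fallen in vitro, and Mrps30 is the member whose in vivo value also lay below 0 (-0.10). The standard errors ran from 0.13 for Rpl7l1 to 0.30 for Rpl21, and the 95% interval of the difference reached down to 0.18 for Mrps30 and 0.32 for Rpl21. The systems were sequenced by different providers, and system and provider cannot be told apart.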

How the results depend on the processing

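No named member past the threshold turned direction under the alternatives run. The medians and summed levels of both sets in vivo lay near 0 and changed sign: the mitochondrial median (0.001) ran from -0.074 to 0.086 with single libraries left out, and the log2 ratio of summed cytosolic levels was 0.011, and -0.017 as a share of counts. In vitro the count of all genes that fell ran from 1059 to 1521 when single libraries were left out, that of cytosolic members from 8 to 38 and that of mitochondrial members from 19 to 35, the mitochondrial median from -0.31 to -0.26 and the cytosolic median from -0.307 to -0.085. The replicate number as a block gave 17 cytosolic and 35 mitochondrial members that fell in vitro, and a crossed pairing, chosen after seeing the data, gave 46 cytosolic members. In vivo all genes that rose or fell numbered 260 and 245 by DESeq2, 14 and 54 by limma at log2(FPKM + 1), 13 and 39 at FPKM of at least 5, 154 and 225 with all 8 libraries in 1 fit and 607 and 471 with the replicate block, and 16 rose by limma at log2(FPKM + 0.1). With single libraries left out they ran from 1 to 165 and from 5 to 83, and the cytosolic median in vivo from -0.133 to 0.133. For the difference, all genes higher in vivo ran from 157 to 823 and lower from 378 to 972, cytosolic members higher from 1 to 12 and mitochondrial members from 0 to 20. Upper quartile scaling gave 2 and DESeq2 9 cytosolic members, and library totals and DESeq2 gave 5 mitochondrial members each. The cause of these changes was not tested, apart from fewer samples or genes in the fit. Of single members and motifs under the alternatives, 2866 values kept their side of the threshold, 108 lost it and 46 gained it. With 2 libraries per group and none marked as a separate animal, power was limited. The planned comparison of protein sequences was not run.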

Other observations

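The 2 ribosomes also stood at different levels between the systems under the WT label alone. The ratio of the mean FPKM of the WT libraries in vitro to that in vivo was above 1 in 81 of 84 cytosolic members, with a median of 3.17 and quartiles of 2.16 and 4.82. It was above 1 in 75 of 77 mitochondrial members, with a median of 1.75 and quartiles of 1.40 and 2.07. Cytosolic members took 7.01% and 6.15% of all counts in vitro and 2.61% and 2.14% in vivo, and mitochondrial members took 0.370% and 0.367% against 0.237% and 0.212%. The ratio varied widely among cytosolic members. Rpl23a stood 47.6-fold higher in vitro, but its in vivo WT libraries had 4.02 and 20.6 FPKM, and the ratio was 146-fold over the first alone and 28.5-fold over the second. Rpl29 stood 15.4-fold higher, while Rpl4, with 1140 and 966 FPKM against 958 and 840, stood 1.17-fold higher. Cell state, culture, sequencing provider and the handling of shared sequence cannot be told apart in these ratios, and they carry no test. Of these 3 genes, Rpl23a shares 82.6% of its 50-base stretches with other genes, Rpl29 78.5% and Rpl4 16.5%.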
